A study of Mus musculus with 10 samples.

Results

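Imprinted genes are transcribed mainly from the maternal or mainly from the paternal chromosome. A list of 33 mouse genes known to be imprinted was followed here, of which 32 had a row among the 31053 genes of the deposited tables. Rian, a non-coding RNA of the Dlk1/Meg3 cluster, had no row, so its RNA was not analysed and only its promoter window was counted. All 32 passed the filter on low counts over all cells and were tested among 17647 genes. The members were grouped by imprinted cluster and by the allele listed as expressed. The listed allele was paternal for 19, maternal for 12 and dependent on tissue for Grb10 and Gnas. Whether the listed allele of the other members holds in every cell type of the cortex was not tested.

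The data are single-cell RNA-seq libraries of whole cortex at E16.5, made from 10 mouse embryos with 1 library each. There were 3 WT (Gatad2b+/+), 4 Het (Gatad2b stop/+) and 3 KO (Gatad2b stop/stop) embryos. Gatad2b encodes a subunit of the NuRD complex, which couples histone deacetylation to nucleosome remodeling, and the study asked how losing 1 or both alleles alters the developing cortex. The stop allele is Gatad2b tm1a(EUCOMM)Hmgu, in which an intronic cassette with a splice trap, LacZ and a promoter-driven Neo is present in every cell from conception. All embryos shared the C57BL/6N-A tm1Brd background, so parental alleles carried no sequence differences to tell them apart, and the expressed allele is given as background and was not measured. The labels give neither litter nor sex, so the p-values measure the spread between these embryos.

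At most imprinted clusters a control region is methylated in only the egg or the sperm, and the mark is kept on that parental chromosome after fertilization. Through a non-coding RNA or an insulator, the unmethylated or methylated region then silences neighbouring genes on the same chromosome. Many imprinted genes act in growth, in the placenta and in the brain, where loss of the paternal genes near Snrpn underlies Prader-Willi syndrome and loss of maternal UBE3A underlies Angelman syndrome.

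Cells with at least 1000 UMIs (unique molecular identifiers, which count RNA molecules) and at most 10% mitochondrial UMIs were kept, 65779 of 80071 barcodes. The kept UMIs of an embryo ranged from 82872641 to 123737385, the median UMIs per cell from 10795 to 17077.5, and pairs of libraries shared 0.0682% to 0.325% of the barcodes of the smaller one. Gatad2b itself fell from 134 ± 4.35 TMM CPM (SD, n = 3, UMIs summed per embryo and scaled to CPM by the TMM method) in WT to 92.4 ± 2.97 (n = 4) in Het and 53.7 ± 3.28 (n = 3) in KO. The library names carried a prefix that WT 1, WT 2, WT 3 and Het 4 shared, and the other 6 embryos had a second prefix. What the prefix stands for is not stated, and KO against WT cannot be told apart from it, so values from a fit with the prefix as a covariate (called prefix-adjusted), in which only the Het embryos span both prefixes, are given beside the results they change. The median share of mitochondrial UMIs per cell also moved with the prefix, at 3.60% to 3.97% in the 4 embryos with the first and 4.31% to 4.66% in the other 6, and its part in the results was not tested. WT 1 and WT 2 held choroid plexus RNA, with 1810 and 122 CPM summed over 9 markers against 10.3 to 17.1 in the other embryos. Het 3 had 359 endothelial-like cells against 23 to 73 elsewhere. Classes were named from marker genes, and 7248 cells in 3 clusters stayed unnamed. Of these, cluster 13 with 1903 cells and cluster 15 with 1664 cells had low median UMIs per cell, at 2431 and 1545. Sums over all cells include them. The ganglionic eminence-like cluster and 1 of the 2 subventricular zone-like clusters had cell cycle genes as their 10 leading genes, and carried 5 and 7 of their own markers. The radial glia-like cluster scored 4.10 on radial glia markers and 3.58 on oligodendrocyte precursor markers, so both kinds of cell may be in it. A finer clustering named 191 cells as oligodendrocyte precursor-like.

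Grb10, Peg12 and Plagl1 were higher than WT in both Het and KO over all cells, and their promoter windows are shown for that reason. Grb10 is an adaptor protein that restrains insulin and Igf signalling, Peg12 (Frat3) belongs to the Frat family of Gsk3-binding proteins, and Plagl1 (Zac1) is a zinc-finger transcription factor with antiproliferative activity. The windows run from 250 bases before to 50 after an annotated start, 5′ to 3′ on the strand of the gene, and are RefSeq sequences of GRCm38.p6. Grb10 had a pair of windows on the minus strand of chromosome 11, Peg12 had 1 on the minus strand of chromosome 7 and Plagl1 had 1 on the plus strand of chromosome 10. Capitals mark TGCCGC, the core of the site that Zfp57 binds at methylated imprinted regions, or its reverse complement GCGGCA.
Grb10 chr11:12037371-12037670: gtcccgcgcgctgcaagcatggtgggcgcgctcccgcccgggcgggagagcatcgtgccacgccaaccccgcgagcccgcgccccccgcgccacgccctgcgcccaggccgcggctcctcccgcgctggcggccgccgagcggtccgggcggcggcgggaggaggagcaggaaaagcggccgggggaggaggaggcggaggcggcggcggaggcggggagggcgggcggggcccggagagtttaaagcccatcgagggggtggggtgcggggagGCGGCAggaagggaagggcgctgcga
Grb10 chr11:12027922-12028221: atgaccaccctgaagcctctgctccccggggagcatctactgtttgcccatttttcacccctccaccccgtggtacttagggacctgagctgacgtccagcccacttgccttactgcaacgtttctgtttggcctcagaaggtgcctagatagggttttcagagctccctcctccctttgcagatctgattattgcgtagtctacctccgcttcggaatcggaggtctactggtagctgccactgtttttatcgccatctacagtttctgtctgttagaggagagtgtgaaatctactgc
Peg12 chr7:62464461-62464760: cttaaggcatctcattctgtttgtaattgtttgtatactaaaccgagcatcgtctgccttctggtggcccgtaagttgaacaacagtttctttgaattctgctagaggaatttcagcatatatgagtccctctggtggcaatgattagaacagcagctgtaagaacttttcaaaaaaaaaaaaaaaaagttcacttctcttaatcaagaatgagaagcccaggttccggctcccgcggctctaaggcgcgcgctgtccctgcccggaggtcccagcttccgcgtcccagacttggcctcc
Plagl1 chr10:13090582-13090881: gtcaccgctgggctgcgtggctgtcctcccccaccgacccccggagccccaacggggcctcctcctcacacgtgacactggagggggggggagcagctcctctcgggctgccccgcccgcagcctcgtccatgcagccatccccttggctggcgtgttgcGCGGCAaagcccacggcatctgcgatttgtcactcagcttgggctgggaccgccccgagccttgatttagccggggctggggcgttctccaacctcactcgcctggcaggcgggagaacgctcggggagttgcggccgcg
The first Grb10 window held 45 CpG dinucleotides and 1 match, the second 9 CpG and 0 matches, the Peg12 window 12 CpG and 0 matches, and the Plagl1 window 26 CpG and 1 match. Over all genes the median was 7 CpG, and 11.6% of 32851 windows held the letters on either strand. Of the members, 28 had a window, and 11 of their 43 windows held a match, in 10 genes. A match says only that these letters are present, and binding or methylation was not measured.

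In WT cortex a few members held most of the imprinted RNA. Since 1 UMI is counted per molecule at the 3′ end, values are not scaled to gene length and compare molecules. Nnat, a small proteolipid of the endoplasmic reticulum, stood at 1427 ± 193 TMM CPM (SD, n = 3) and Meg3, a maternally expressed non-coding RNA, at 1354 ± 149, and their ranges over WT embryos overlapped. Gnas, which encodes the stimulatory G protein alpha subunit, followed at 924 ± 43.2. Kcnq1ot1, the paternal RNA that silences the Kcnq1 domain, stood at 378 ± 23.6 and Ube3a, a ubiquitin ligase, at 345 ± 6.89, without overlap between them. Ndn (necdin, a MAGE family protein of postmitotic neurons) was at 203 ± 28.7. Inpp5f, a phosphoinositide phosphatase, was at 165 ± 9.7 and the splicing protein gene Snrpn at 159 ± 9.46, with overlapping ranges. Peg3, a zinc-finger gene, was at 75.6 ± 1.97, and Usp29, which is transcribed away from the same start region, at 70.5 ± 1.54. The 32 members together made up 0.49% to 0.598% of the kept UMIs of an embryo. At the other end, Igf2 was counted 207 times and Phlda2, a placental growth restrainer, 79 times over all 10 embryos.

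The members differed in which classes held them, as the map of WT levels by class shows. Highest levels were in mural and fibroblast-like cells for 10 members, layer I-like for 7, interneuron-like for 6, radial glia-like and striatal inhibitory-like for 3 each, and endothelial-like, ganglionic eminence-like and layer V-VI-like for 1 each. These levels pool the UMIs of 3 WT embryos and carry no test.

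**Figure D1:**
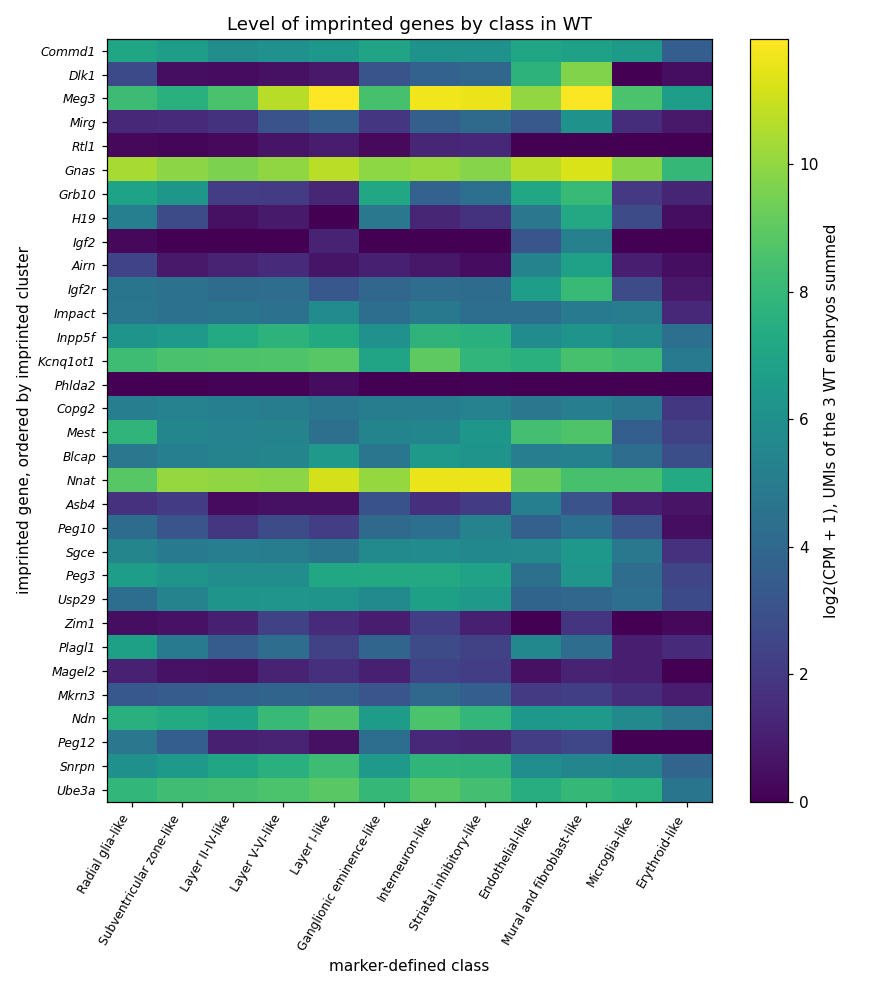
Level of the 32 imprinted genes (rows, ordered by imprinted cluster) in 12 marker-defined classes (columns) of WT cortex, as log2(CPM + 1) of the UMIs of the 3 WT embryos summed, on a colour scale from dark (0) to yellow. Meg3 and Nnat are bright in layer I-like, interneuron-like and striatal inhibitory-like cells, and Dlk1, H19, Igf2, Igf2r and Airn are brightest in mural and fibroblast-like cells.

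Several growth-regulating members were highest in vascular and stromal classes. Dlk1, a Notch-related membrane ligand of progenitors, reached 831 CPM in mural and fibroblast-like cells and 211 in endothelial-like cells, against 14.3 in striatal inhibitory-like and 0.316 in layer II-IV-like cells. Igf2r, which clears the growth factor Igf2, reached 279 CPM in mural and fibroblast-like cells, and Airn, the paternal RNA antisense to it, reached 113. H19, a maternally expressed non-coding RNA, was at 146 CPM there and at 35.2 in radial glia-like cells. Igf2 was at 36.6 CPM there and at 8.08 in endothelial-like cells, and these classes held 29.1% and 35.9% of its 103 WT UMIs. Mest, a hydrolase-like protein, stood at 405 CPM in mural and fibroblast-like and 333 in endothelial-like cells. Asb4, a ubiquitin ligase adaptor, was highest in endothelial-like cells at 34.7 CPM. Grb10 at 266 CPM, Gnas at 2520, Mirg, a host RNA of microRNAs, at 70.8 and Sgce, a sarcoglycan, at 83.0 were also highest in mural and fibroblast-like cells. That class held 193 cells, 9 to 29 per embryo, and was too small to be tested between genotypes.

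Among the named neural classes, Plagl1 and Peg12 were highest in radial glia-like cells. Plagl1 fell from 111 CPM in radial glia-like cells to 29.8 in subventricular zone-like, 18.5 in layer V-VI-like and 10.2 in layer II-IV-like cells of WT. Peg12 was at 25.7 CPM in radial glia-like, 19.3 in ganglionic eminence-like and 11.1 in subventricular zone-like cells, and at 1.52 in interneuron-like and 1.05 in layer II-IV-like cells. Grb10 was at 122 CPM in radial glia-like and 141 in ganglionic eminence-like cells, against 3.18 in layer V-VI-like cells. Meg3 ran the other way, with 3994 CPM in layer I-like, 3313 in interneuron-like and 191 in subventricular zone-like cells. Nnat was at 3127 CPM in interneuron-like and 463 in radial glia-like cells.

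Over all cells of the KO, 11 of 32 members were called against WT, 8 higher and 3 lower, where a call needs both an adjusted p below 0.05 and a log2 fold change beyond 0.25 in either direction. Among all tested genes 24.5% were called in this comparison, so calls were common in this comparison whatever the gene. The higher members were Plagl1, Magel2, Peg12, Grb10, Peg10, Nnat, Commd1 and Snrpn, and the lower ones were Igf2, Zim1 and Mirg. By listed allele, 6 of 19 paternal members were higher and 1 lower, and of the 11 tested maternal members 1 was higher and 2 were lower. In Het, 3 of 32 were called, all higher, against 2.98% of all genes. The median log2 fold change of the members was 0.01 in KO and -0.02 in Het, beside -0.01 and 0.00 over all genes. Both comparisons used the same 3 WT embryos. In a sum over all cells, fewer cells of a type and less RNA per cell cannot be told apart. The share of kept cells that were subventricular zone-like ran between 4.57% and 4.70% over WT embryos, 5.31% and 7.17% over Het and 7.38% and 7.85% over KO, without overlap. Ganglionic eminence-like cells also did not overlap, with 1.64% to 2.42%, 2.55% to 3.27% and 3.34% to 4.16%, whereas radial glia-like cells did, with 1.88% to 2.95%, 2.58% to 3.22% and 2.66% to 4.20%. In the other direction, unnamed cells made up 13.2% to 13.6%, 7.93% to 12.4% and 8.49% to 10.7%. Layer I-like cells made up 1.15% to 1.38%, 1.05% to 1.82% and 0.933% to 1.07%, with WT and KO apart in both. The unnamed share also moved with the prefix, at 12.4% in Het 4 and 7.93%, 9.15% and 8.94% in Het 1, Het 2 and Het 3. Plagl1, Grb10 and Peg12 were at their highest neural levels in progenitors, and the part of these shares in their values over all cells was not tested. Within radial glia-like cells alone the KO change was 0.84 for Plagl1, 0.57 for Grb10 and 0.33 for Peg12 (edgeR adjusted p = 0.00104, 0.000204 and 0.132).

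**Figure D2:**
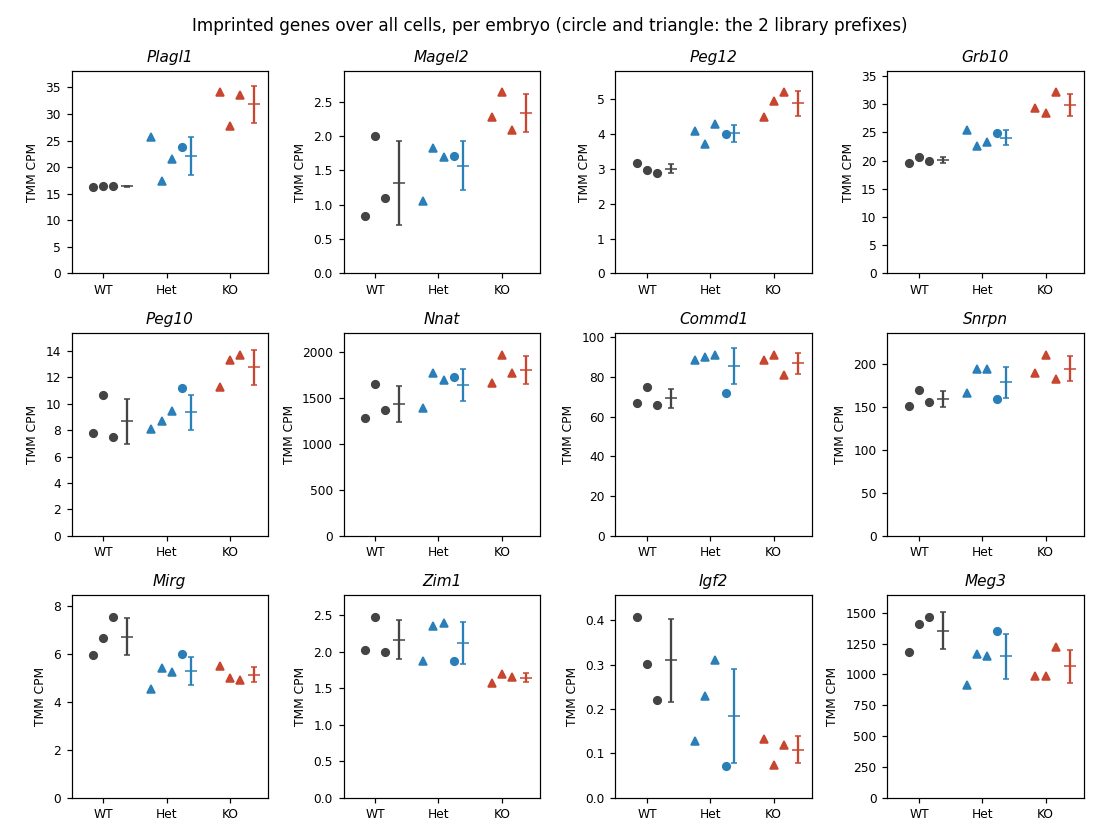
TMM CPM over all cells (y axes, from 0) of the 11 members called in KO against WT, ordered by log2 fold change, and of Meg3, with 1 point per embryo in WT, Het and KO, circles and triangles for the library prefixes, and bars for the mean ± SD. Plagl1, Grb10 and Peg12 show Het embryos between WT and KO, while Commd1 in Het 4, a circle, sits at 72.0 with the WT embryos.

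Plagl1 showed the largest increase among the higher members. It lies on chromosome 10 from 13060504 to 13131694 (plus strand, GRCm38 as for all positions). WT embryos stood at 16.2, 16.49 and 16.4 TMM CPM, Het embryos at 25.7, 17.5, 21.6 and 23.7, and KO embryos at 34.0, 27.8 and 33.6. All Het embryos were above all WT embryos and all KO embryos above all Het embryos. The log2 fold change against WT was 0.44 ± 0.11 (SE) in Het (edgeR adjusted p = 0.0497) and 0.96 ± 0.12 in KO (edgeR adjusted p = 0.000186). KO exceeded Het by 0.52 ± 0.11 (edgeR adjusted p = 0.0141, lost without KO 1 or KO 3), where 2 members, Plagl1 and Grb10, were called against 5.5% of all genes. The Het call sits at the threshold and was lost without any 1 of WT 1, WT 2, WT 3, Het 1, Het 3, KO 1, KO 2 or KO 3, with adjusted p up to 0.14.

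Grb10 lies on chromosome 11 from 11930508 to 12038683 (minus strand) and is expressed from the maternal allele in most tissues and from the paternal allele in neurons. It stood at 19.6, 20.7 and 19.9 TMM CPM in WT, 25.4, 22.6, 23.2 and 24.9 in Het, and 29.3, 28.3 and 32.0 in KO. The groups did not overlap. The log2 fold change was 0.26 ± 0.054 in Het (edgeR adjusted p = 0.0308), 0.58 ± 0.058 in KO (edgeR adjusted p = 4.94e-05) and 0.31 between KO and Het (edgeR adjusted p = 0.00496). Isoforms, which differ between the alleles of Grb10, Gnas, Blcap and Inpp5f, were not told apart. The Het call was lost without WT 1, WT 2, WT 3, Het 1 or Het 3, with adjusted p from 0.056 to 0.11.

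Peg12 lies on chromosome 7 from 62461871 to 62464510, beside Mkrn3, Magel2 and Ndn in the Snrpn/Ube3a cluster. WT embryos stood at 3.16, 2.98 and 2.88 TMM CPM, Het embryos at 4.08, 3.70, 4.29 and 3.99, and KO embryos at 4.49, 4.96 and 5.19, again without overlap. The log2 fold change was 0.42 ± 0.088 in Het (edgeR adjusted p = 0.0323) and 0.70 ± 0.093 in KO (edgeR adjusted p = 0.000311). Its neighbour Magel2, a MAGE protein of endosomal sorting, was at 0.843, 2.00 and 1.10 in WT and 2.27, 2.63 and 2.09 in KO. Magel2 was called in KO at 0.82 ± 0.28 (edgeR adjusted p = 0.0421), and the call was lost without any 1 of WT 1, WT 3, Het 2, Het 3 or the KO embryos. Snrpn was at 151, 169 and 156 TMM CPM in WT and 189, 211 and 182 in KO, a log2 fold change of 0.29 ± 0.084 (edgeR adjusted p = 0.0192), which lost its call without WT 1, WT 3 or KO 2. Mkrn3, a ring-finger protein, and Ube3a differed by 0.12 and 0.03 without a call, with adjusted p of 0.222 and 0.609 by edgeR. The Peg12 call in Het was lost without WT 1, WT 2, WT 3, Het 1, Het 2 or Het 3, with adjusted p from 0.052 to 0.11.

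Peg10, a retrotransposon-derived gene needed in placenta, stood at 7.82, 10.6 and 7.52 TMM CPM in WT, 8.06, 8.69, 9.47 and 11.2 in Het and 11.3, 13.3 and 13.7 in KO. Its log2 fold change in KO was 0.56 ± 0.15 (edgeR adjusted p = 0.0121), and it lost the call without WT 3 at 0.46 or without KO 3 at 0.49. Nnat was at 1273, 1644 and 1365 in WT and 1662, 1966 and 1767 in KO, where the groups did not overlap. Its log2 fold change was 0.33 ± 0.11 (edgeR adjusted p = 0.0311), and it lost the call without WT 1, WT 3, KO 2 or KO 3. Commd1, a copper-handling regulator of NF-kB, was at 67.1, 74.8 and 66.2 in WT and 88.5, 91.3 and 81.2 in KO. Its log2 fold change was 0.33 ± 0.086 (edgeR adjusted p = 0.0124), lost without KO 2 at 0.29. Het 4, with the prefix of the WT libraries, was at 72.0, and Het 1, Het 2 and Het 3 were at 88.5, 90.2 and 91.1.

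The lower members were scarce. Igf2 was at 0.408, 0.301 and 0.22 TMM CPM in WT and 0.131, 0.0738 and 0.12 in KO, a log2 fold change of -1.48 ± 0.47 (edgeR adjusted p = 0.03). Choroid plexus expresses Igf2, and the choroid plexus markers were highest in WT 1 and WT 2, as given above. Their part in the Igf2 values was not tested. Without WT 1 the fold change was -1.24 (edgeR adjusted p = 0.095), and the call was also lost without WT 2 or any KO embryo. Zim1, a maternally expressed zinc-finger gene next to Peg3, fell by 0.40 on the log2 scale, from 2.17 ± 0.271 in WT to 1.64 ± 0.0612 in KO (SD, n = 3 each, edgeR adjusted p = 0.039). Without WT 2 or any KO embryo its call was lost. Mirg was at 5.97, 6.66 and 7.55 in WT and 5.49, 4.99 and 4.92 in KO, a log2 fold change of -0.39 ± 0.11 (edgeR adjusted p = 0.0211), lost without WT 3, KO 2 or KO 3.

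Of the 21 members without a call, Sgce at -0.17, Gnas at 0.17 and Impact, a translation regulator, at -0.13 had an edgeR adjusted p under 0.05 (0.0116, 0.0171 and 0.0383) and a fold change below the threshold. Meg3 was at 1186, 1408 and 1468 TMM CPM in WT, 914, 1169, 1152 and 1350 in Het, and 989, 990 and 1220 in KO. KO 3 lay among the WT embryos, and the log2 fold change of -0.34 ± 0.13 had an edgeR adjusted p of 0.0588. The remaining 17 ranged from -0.33 for Ndn to 0.86 for Phlda2 on the log2 scale, and 0 of them passed the edgeR adjusted p of 0.05. They include 6 of the abundant members, with Kcnq1ot1 at -0.12, Usp29 at -0.11, Peg3 at -0.10, Inpp5f at -0.08 and Ube3a at 0.03 beside Ndn. Copg2, a coat protein gene, and Igf2r were nearest to 0, at -0.02 and -0.01.

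When only libraries of 1 prefix were compared, KO against Het 1, Het 2 and Het 3, Peg10 was higher by 0.55 (edgeR adjusted p = 0.006), Grb10 by 0.33 (edgeR adjusted p = 0.00998) and Plagl1 by 0.56 (edgeR adjusted p = 0.0249), against 6.14% of all genes called. Peg12 differed by 0.28 (edgeR adjusted p = 0.125). With the prefix as a covariate, 5 members kept an adjusted p under 0.05 in KO against WT, and 0 were called in Het. The share of all genes called in that fit is not given here. The 5 were Peg10 at 0.91, Peg12 at 0.68, Igf2 at -3.09, Plagl1 at 1.10 and Grb10 at 0.65. For Igf2 the prefix term rests on Het 4 with 9 UMIs, against 12, 21 and 30 in Het 1, Het 2 and Het 3. Het 4 also had the lowest endothelial and mural and fibroblast marker sums, at 54.7 and 43.0 CPM. Their part in the Igf2 value was not tested. Prefix-adjusted, Commd1 was at 0.00 and Snrpn at 0.07 (edgeR adjusted p = 0.987 and 0.791), and Magel2 was at 0.99, Nnat at 0.42, Zim1 at -0.64 and Mirg at -0.14 (edgeR adjusted p = 0.25, 0.19, 0.11 and 0.685). The changes of Plagl1, Grb10 and Peg12 in Het were then 0.54, 0.31 and 0.41, with edgeR adjusted p of 0.252, 0.148 and 0.275.

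Within marker-defined classes, 254 pairs of class and member could be tested in 11 classes, and 43 were called in KO against WT, 29 higher and 14 lower, in 8 classes. In Het 7 were called, 6 higher and 1 lower, in 3 classes. Of 31 members tested in some class, 22 were called in at least 1, and 14 of these were not called over all cells. Of the 15868 genes tested in some class, 50.6% were called in at least 1 and 26.9% were called in a class and not over all cells. Igf2, Zim1 and Mirg were called over all cells and in no class, but could be tested in only 1, 3 and 7 classes. Their KO changes there were -1.25 for Igf2, -0.46 to -0.28 for Zim1 and -0.59 to 0.27 for Mirg. Prefix-adjusted, 42 of the 43 kept their direction, the exception being Commd1 in layer II-IV-like cells at -0.02, but only 11 kept an edgeR adjusted p under 0.05. These were Plagl1 in layer II-IV-like and layer V-VI-like cells, Nnat in layer II-IV-like and layer I-like cells, Grb10, Peg10 and Peg3 in radial glia-like cells, Dlk1 and Peg10 in striatal inhibitory-like cells, and Gnas and Kcnq1ot1 in erythroid-like cells. Of the 7 calls in Het, Nnat in layer I-like cells kept it. The share of all called genes that kept theirs is not given here.

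**Figure D3:**
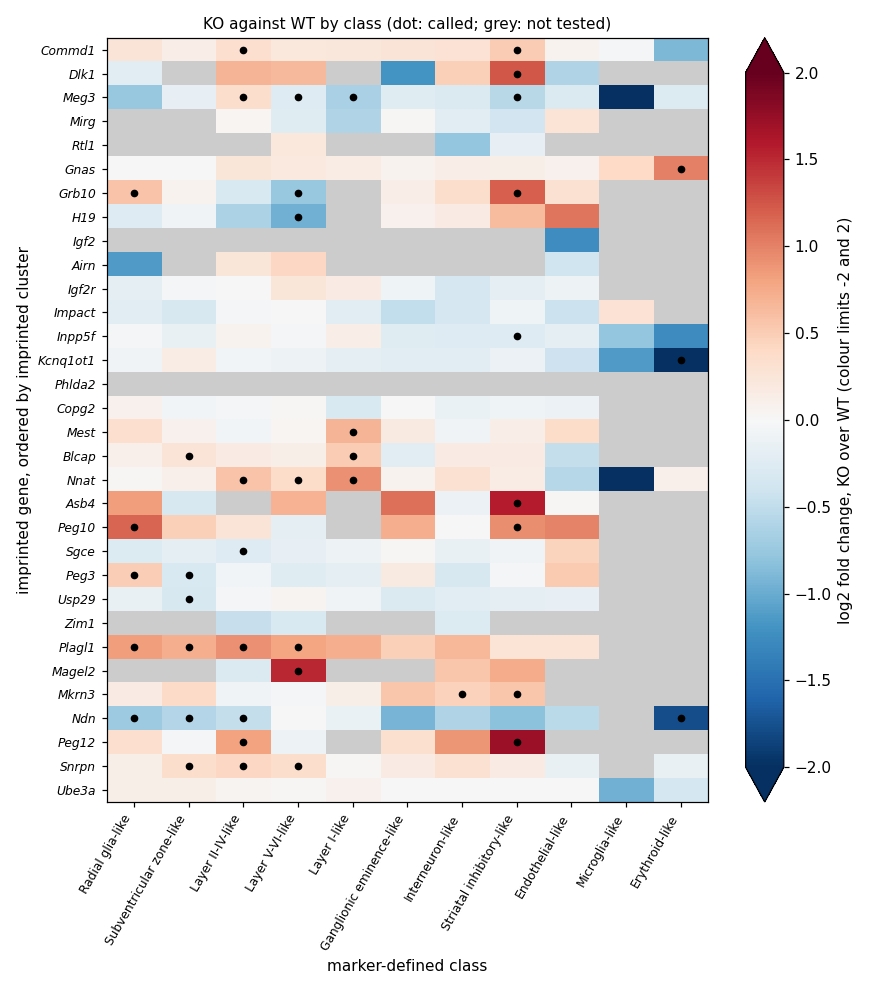
Log2 fold change of KO over WT (colour, red higher and blue lower, limits -2 and 2) for imprinted genes (rows) in 11 classes (columns), with a dot on the 43 calls and grey where counts were too low to test. Plagl1 is red in all 9 classes tested, Ndn is white to blue in all 10, and Meg3 carries a red dot in layer II-IV-like cells and blue dots in layer I-like, layer V-VI-like and striatal inhibitory-like cells.

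The members called in KO in each class are given here with the share of all genes called there. Striatal inhibitory-like cells had 9 of 28 members called (17.5% of all genes), layer II-IV-like 8 of 28 (30.7%), layer V-VI-like 7 of 30 (23.6%), subventricular zone-like 6 of 24 (17.7%), radial glia-like 5 of 26 (21.8%), layer I-like 4 of 20 (5.57%), erythroid-like 3 of 9 (11.5%) and interneuron-like 1 of 29 (8.69%). Ganglionic eminence-like, endothelial-like and microglia-like cells had 0 members called, against 4.1%, 0% and 1.52% of all genes. In Het the calls were Asb4, Commd1, Grb10 and Meg3 in striatal inhibitory-like cells (2.9% of all genes), Commd1 and Plagl1 in layer II-IV-like cells (6.92%) and Nnat in layer I-like cells (0.162%). The Het call of Commd1 in layer II-IV-like cells, at 0.27, was lost without 8 of the 10 embryos in turn, all but WT 2 and Het 4, and prefix-adjusted it was 0.00 (edgeR adjusted p = 0.993). It was also lost when cells were clustered without integration of the libraries, and at a finer clustering with resolution 0.8 (edgeR adjusted p = 0.0663 and 0.0695). At resolution 0.8 a class of the same name held a different set of cells. Ganglionic eminence-like cells numbered 4669 there against 1810, and subventricular zone-like cells 6938 against 3942.

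Plagl1 was above WT in all 9 classes tested in KO, with log2 fold changes from 0.27 to 0.91, and was called in 4 of them. In layer II-IV-like cells it was at 11.2, 9.19 and 9.67 TMM CPM in WT, 15.7, 11.5, 13.2 and 12.1 in Het, and 18.2, 18.1 and 20.4 in KO. There the log2 fold change was 0.39 ± 0.10 in Het (edgeR adjusted p = 0.0261) and 0.91 ± 0.11 in KO (edgeR adjusted p = 1.11e-05). In radial glia-like cells, where it was most abundant, it was at 97.3, 111 and 114 in WT and 180, 203 and 198 in KO, while Het embryos spread from 81.9 to 152. The KO change there was 0.84 ± 0.15 (edgeR adjusted p = 0.00104). It was 0.79 in layer V-VI-like cells (edgeR adjusted p = 0.00028) and 0.73 in subventricular zone-like cells (edgeR adjusted p = 0.000847). The Het call in layer II-IV-like cells was lost without WT 2, WT 3, Het 1 or Het 3, with log2 fold changes down to 0.29. Prefix-adjusted, it was 0.27 (edgeR adjusted p = 0.43), and the KO changes in radial glia-like and subventricular zone-like cells were 0.87 and 0.61 (edgeR adjusted p = 0.0551 and 0.161).

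Grb10 rose in radial glia-like and in striatal inhibitory-like cells of KO. In radial glia-like cells it was at 130, 109 and 125 TMM CPM in WT, 152, 133, 157 and 150 in Het, and 170, 174 and 193 in KO, a KO change of 0.57 ± 0.085 (edgeR adjusted p = 0.000204), which was 0.46 (edgeR adjusted p = 0.0641) at a finer clustering. In striatal inhibitory-like cells it was at 19.3, 26.9 and 13.2 in WT, 29.0, 30.0, 31.0 and 27.6 in Het, and 45.4, 43.3 and 46.2 in KO. The log2 fold change there was 0.58 ± 0.15 in Het (edgeR adjusted p = 0.0494) and 1.19 ± 0.16 in KO (edgeR adjusted p = 8.02e-05), and at the finer clustering these were 0.27 and 0.48 (edgeR adjusted p = 0.711 and 0.201). In layer V-VI-like cells, where it was scarce at 3.21 ± 0.772 (n = 3), it fell by 0.75 (edgeR adjusted p = 0.0277, 722 UMIs in all), a call lost without WT 2, WT 3, KO 1 or KO 2. With its clusters summed apart, it was -1.13 in cluster 3 and -1.15 in cluster 4, both called, and -0.02 in cluster 11 (edgeR adjusted p = 0.972). The test of the difference between layer V-VI-like and interneuron-like cells gave -0.94 for Grb10 (limma adjusted p = 0.0402). The Het call in striatal inhibitory-like cells was lost without 8 of the 10 embryos in turn, all but WT 2 and Het 4, with fold changes from 0.34 to 0.88. Prefix-adjusted, the changes in striatal inhibitory-like cells were 0.49 in Het and 1.07 in KO (edgeR adjusted p = 0.602 and 0.0553), and that in layer V-VI-like cells was -0.67 (edgeR adjusted p = 0.368).

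Meg3 changed in opposite directions between classes. In layer II-IV-like cells it was at 320, 381 and 380 TMM CPM in WT, 320, 366, 376 and 356 in Het, and 454, 408 and 512 in KO, a rise of 0.35 ± 0.084 (edgeR adjusted p = 0.00422). In layer I-like cells it was at 4466, 3349 and 4193 in WT, 3009, 3462, 3373 and 3435 in Het, and 2276, 2468 and 2875 in KO, a change of -0.66 ± 0.098 (edgeR adjusted p = 0.000303). In striatal inhibitory-like cells it was at 3103, 3011 and 3211 in WT, 2186, 2204, 2067 and 2638 in Het, and 2142, 1916 and 2269 in KO. All 7 mutant embryos were below all WT embryos there, with -0.45 ± 0.072 in Het (edgeR adjusted p = 0.00464) and -0.56 ± 0.078 in KO (edgeR adjusted p = 0.00013). In layer V-VI-like cells the change was -0.26 (edgeR adjusted p = 0.025), lost without WT 1, WT 3, KO 1 or KO 2, and the Het call in striatal inhibitory-like cells was lost without WT 3 (edgeR adjusted p = 0.055). None of the 5 calls of Meg3 passed when prefix-adjusted. The KO change was then -0.27 in striatal inhibitory-like cells (edgeR adjusted p = 0.203), with -0.24 in Het (edgeR adjusted p = 0.447), and -0.03 in layer V-VI-like cells (edgeR adjusted p = 0.92). It was -0.59 in layer I-like cells (edgeR adjusted p = 0.0929) and 0.35 in layer II-IV-like cells (edgeR adjusted p = 0.101). Other clusterings moved the KO change away from 0, to -0.53 without integration and -0.47 at resolution 0.8 in layer V-VI-like cells (edgeR adjusted p = 7.76e-05 and 9.97e-05), and to 0.54 at resolution 0.8 in layer II-IV-like cells (edgeR adjusted p = 0.000519). In striatal inhibitory-like cells it was -0.35 at that resolution, with -0.34 in Het (edgeR adjusted p = 0.286 and 0.577). The difference between layer II-IV-like cells and the others was not tested.

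The clusters that make up layer II-IV-like cells shifted with genotype. Cluster 0, led by Unc5d and Sema3c, held 42.5% of the class in WT, 49.7% in Het and 60.8% in KO on average, cluster 1, with Cdh12 among its leading genes, held 47.3%, 40.5% and 33.4%, and cluster 16 held the rest. Summed apart, Meg3 changed by 0.29 in cluster 0 (edgeR adjusted p = 0.0555), 0.88 in cluster 1 and 0.63 in cluster 16, and was called in the last 2. Plagl1 rose by 0.73 in cluster 0 and 0.67 in cluster 1 and stood at 0.44 in cluster 16 (edgeR adjusted p = 0.406), and Snrpn rose by 0.48, 0.52 and 0.58 in clusters 0, 1 and 16. In the clusters of layer V-VI-like cells Meg3 changed by -0.44 in cluster 4, led by Hs3st4 and Tle4 (edgeR adjusted p = 0.0019), and stood at -0.21 in cluster 3 (edgeR adjusted p = 0.0674) and -0.05 in cluster 11 (edgeR adjusted p = 0.784). Differences between clusters were not tested.

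**Figure D4:**
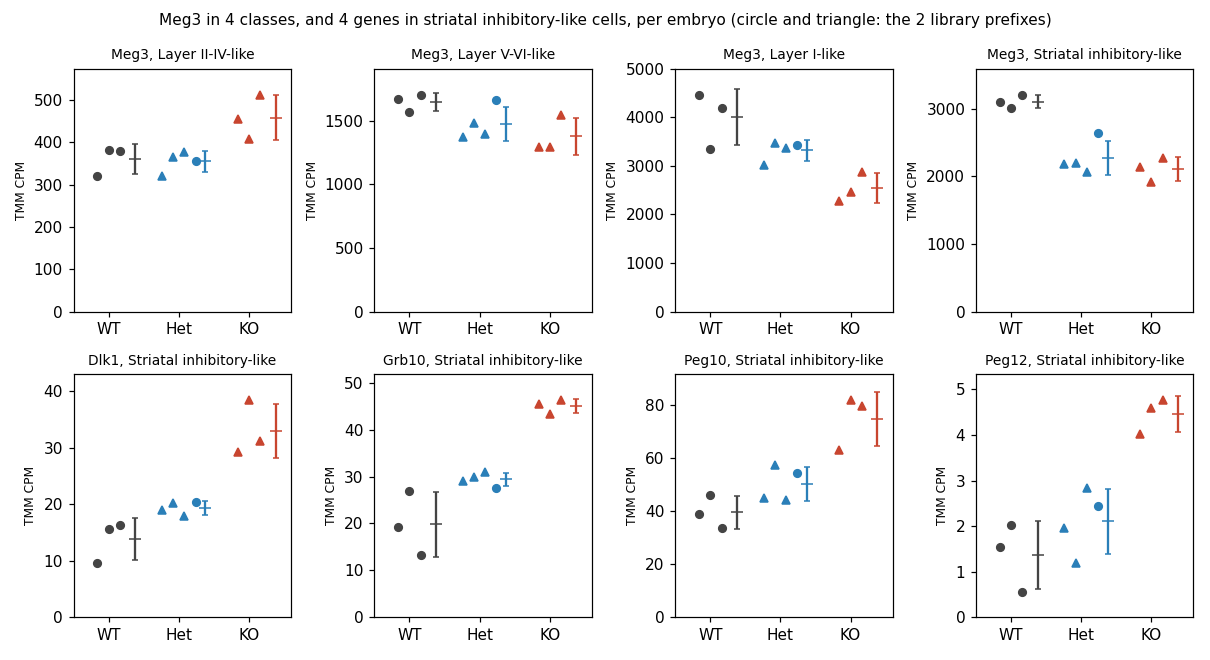
TMM CPM per embryo (y axes, from 0) of Meg3 in layer II-IV-like, layer V-VI-like, layer I-like and striatal inhibitory-like cells (top) and of Dlk1, Grb10, Peg10 and Peg12 in striatal inhibitory-like cells (bottom), with points, prefixes and mean ± SD marked by circles, triangles and bars. Meg3 is higher in KO in the first panel and lower in the fourth, and the KO points of Dlk1, from 29.3 to 38.4, lie above all WT and Het points.

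Striatal inhibitory-like cells had the most called members, and these include genes of the Dlk1/Meg3 cluster that moved apart. While Meg3 fell, Dlk1 was at 9.66, 15.7 and 16.3 TMM CPM in WT, 18.98, 20.3, 17.8 and 20.3 in Het, and 29.3, 38.4 and 31.1 in KO, a rise of 1.24 ± 0.15 (edgeR adjusted p = 5.24e-05). Peg10 was at 39.0, 46.0 and 33.6 in WT and 63.2, 81.7 and 79.5 in KO, a rise of 0.93 ± 0.12 (edgeR adjusted p = 7.78e-05). Peg12 rose by 1.71 on 146 UMIs in all (edgeR adjusted p = 0.00398). Asb4 was at 4.31, 4.20 and 1.82 in WT, 8.51, 10.7, 6.63 and 8.54 in Het, and 4.45, 10.6 and 15.1 in KO, where KO 1 lay near WT. Its change was 1.33 in Het (edgeR adjusted p = 0.0465) and 1.58 in KO (edgeR adjusted p = 0.00578). Commd1 rose by 0.51 in KO. Mkrn3 rose by 0.55, a call lost without WT 1, WT 3 or KO 3, and Inpp5f fell by 0.26, lost without WT 3 or KO 2. Prefix-adjusted, Dlk1 was at 1.33 and Peg10 at 1.08 (edgeR adjusted p = 0.0143 and 0.0112), while Peg12 was at 1.96, Asb4 at 1.58, Commd1 at 0.28, Mkrn3 at 0.23 and Inpp5f at -0.05, with edgeR adjusted p of 0.156, 0.214, 0.428, 0.777 and 0.879. In Het, Asb4 was then at 1.33 and Commd1 at 0.16 (edgeR adjusted p = 0.482 and 0.803).

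The class held 2 clusters, which were also summed apart, and the difference between them was not tested. Cluster 8, led by Ebf1 and Isl1, had Dlk1 higher by 1.54 and Peg10 by 1.15, while cluster 5, led by Six3 and Zfhx3, had Dlk1 at -0.13 (edgeR adjusted p = 0.83) and Peg10 at 0.33 (edgeR adjusted p = 0.366). Peg10 is itself among the leading genes of cluster 8. Grb10, Meg3, Asb4 and Commd1 were called in both clusters, with Grb10 at 1.23 and Meg3 at -0.60 in cluster 5, and at 0.84 and -0.47 in cluster 8. At a finer clustering, with resolution 0.8, the striatal inhibitory-like class was a different set of 5795 cells against 6985. It gave Dlk1 at 0.83 (edgeR adjusted p = 0.195), Grb10 at 0.48 (edgeR adjusted p = 0.201), Peg10 at 0.75 (edgeR adjusted p = 0.0864) and Meg3 at -0.35 (edgeR adjusted p = 0.286). Of the 9 called members, 8 could be tested there, all but Peg12, and of these Commd1 remained past the p. The 4 Het calls of the class were also lost at that resolution, with Asb4 at 0.98, Commd1 at 0.28, Grb10 at 0.27 and Meg3 at -0.34 (edgeR adjusted p = 0.608, 0.519, 0.711 and 0.577). The Het calls of Asb4 and Commd1 were lost without 7 and 6 of the 10 embryos, with adjusted p up to 0.22 and 0.21.

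Layer I-like cells, marked by Reln, Trp73 and Lhx5, showed the clearest Nnat change. Nnat was at 2025, 2486 and 2381 TMM CPM in WT, 3090, 2896, 3264 and 3405 in Het, and 4487, 4533 and 3994 in KO, with no overlap between groups. The log2 fold change was 0.46 ± 0.079 in Het (edgeR adjusted p = 0.0102) and 0.92 ± 0.084 in KO (edgeR adjusted p = 1.66e-06). Blcap, an apoptosis regulator whose intron holds Nnat, was at 85.3, 83.1 and 88.4 in WT and 120, 130 and 118 in KO, a rise of 0.52 (edgeR adjusted p = 0.00239). Mest rose by 0.69 (edgeR adjusted p = 0.0363, 514 UMIs in all), lost without any 1 of the WT embryos, KO 1 or KO 2. Nnat also rose in KO in layer II-IV-like cells by 0.56 (edgeR adjusted p = 1.57e-05) and in layer V-VI-like cells by 0.37 (edgeR adjusted p = 0.00619). With the clusters summed apart, Nnat changed by 0.41 in cluster 0 and 0.52 in cluster 1 and stood at 0.17 in cluster 16 (edgeR adjusted p = 0.164) of the layer II-IV-like class. Among deep-layer clusters it changed by 0.25 in cluster 11 and 0.55 in cluster 4 and stood at 0.20 in cluster 3 (edgeR adjusted p = 0.392). The Het call of Nnat was lost without WT 1 or WT 3, with adjusted p up to 0.14. Prefix-adjusted, Blcap was at 0.53 and Mest at 1.19 in layer I-like cells, and Nnat at 0.44 in layer V-VI-like cells, with edgeR adjusted p of 0.158, 0.0517 and 0.086.

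Other calls in KO fell in progenitors, in deep and upper layers, and in interneuron-like and erythroid-like cells. In radial glia-like cells Peg10 was at 18.5, 17.2 and 17.3 TMM CPM in WT and 34.9, 43.1 and 41.7 in KO, a rise of 1.17 ± 0.16 (edgeR adjusted p = 0.0001). Peg3 rose there by 0.50 (edgeR adjusted p = 0.00277), which was 0.23 (edgeR adjusted p = 0.515) at resolution 0.8, and fell in subventricular zone-like cells by 0.31 (edgeR adjusted p = 0.0107), lost without KO 3. Usp29 fell in subventricular zone-like cells by 0.32 and Blcap rose by 0.26, lost without any 1 WT or KO embryo for Usp29 and without WT 1, WT 3, KO 2 or KO 3 for Blcap. In layer V-VI-like cells Magel2 was at 1.11, 1.498 and 1.11 in WT and 3.61, 3.93 and 3.20 in KO, a rise of 1.51 ± 0.23 (edgeR adjusted p = 0.000332). H19 fell there by 0.97 on 175 UMIs, past the p in 3 of the 10 tests that left out 1 embryo. Snrpn rose by 0.41 in layer II-IV-like, 0.35 in layer V-VI-like and 0.35 in subventricular zone-like cells, and these were 0.19, 0.05 and 0.19 when prefix-adjusted. Without integration the subventricular zone-like change of Snrpn was 0.23 (edgeR adjusted p = 0.0713) and that of Usp29 was -0.58 (edgeR adjusted p = 0.00113), and H19 in layer V-VI-like cells lost its call there and at resolution 0.8 (edgeR adjusted p = 0.107 and 0.201). With DESeq2, Usp29 and Blcap in subventricular zone-like cells, H19 in layer V-VI-like cells and Mest in layer I-like cells were not called (DESeq2 adjusted p = 0.0675, 0.101, 0.0959 and 0.106). Sgce changed by -0.2503 in layer II-IV-like cells, at the edge of the 0.25 threshold. Its change lay inside the threshold with DESeq2 at -0.248, without integration at -0.222 and at resolution 0.8 at -0.238. Leaving out 1 embryo gave -0.285 to -0.197. Mkrn3 rose by 0.47 in interneuron-like cells (edgeR adjusted p = 0.0329), lost without WT 1, WT 3 or any KO embryo. Peg12 rose by 0.80 in layer II-IV-like cells on 412 UMIs, lost without KO 1. Prefix-adjusted, Peg3 was at -0.36, Usp29 at -0.34 and Blcap at 0.23 in subventricular zone-like cells, Magel2 at 1.21 and H19 at -0.43 in layer V-VI-like cells, Sgce at -0.19 and Peg12 at 0.85 in layer II-IV-like cells, and Mkrn3 at 0.19 in interneuron-like cells, with edgeR adjusted p from 0.0858 to 0.934. In erythroid-like cells Gnas was at 151 ± 26.0 in WT and 306 ± 52.3 in KO (n = 3 each), while Kcnq1ot1 went from 17.4 ± 2.39 to 2.98 ± 1.43 and Ndn from 15.4 ± 1.91 to 4.44 ± 1.32, far below their levels in neurons. The KO values of Kcnq1ot1 rest on 2, 1 and 3 UMIs and those of Ndn on 2, 3 and 4. With the 2 erythroid-like clusters summed apart, Gnas was at 0.77 and 0.67 (edgeR adjusted p = 0.307 and 0.0974) and Ndn at -2.36 and -1.52 (edgeR adjusted p = 0.153 and 0.0836), without a call. The Gnas call was lost without WT 1, WT 3, KO 1 or KO 2, and the Ndn call without KO 1 or KO 2. Prefix-adjusted, Ndn there was at -2.09 (edgeR adjusted p = 0.0555). Whether these counts came from free RNA in the droplets was not tested.

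The difference between layer V-VI-like and interneuron-like cells in their KO change was tested over 12825 genes, of which 6.27% passed. Of 29 members 3 passed. Igf2r was at 18.5, 17.6 and 17.9 TMM CPM in WT and 20.5, 21.9 and 21.6 in KO in layer V-VI-like cells, and at 20.5, 16.54 and 17.2 and 13.1, 13.4 and 16.3 in interneuron-like cells. The difference of its changes was 0.55 ± 0.11 (limma adjusted p = 0.0101). Mkrn3 differed by -0.47 ± 0.10 (limma adjusted p = 0.0193). The number of members was 0 without KO 2, 1 without KO 1 or KO 3, and 0 with the prefix as a covariate. The share of all genes passing in those runs is not given here.

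Ndn did not follow the genotype over embryos. Over all cells it was at 178, 235 and 197 TMM CPM in WT, 180, 225, 131 and 227 in Het, and 140, 112 and 231 in KO, so that KO 3 was with WT and Het 3 was with KO 1 and KO 2. The KO change of -0.33 had an edgeR adjusted p of 0.321. In radial glia-like cells it was at 174, 196 and 189 in WT, 167, 186, 104 and 174 in Het, and 92.5, 78.1 and 164 in KO. It was called lower in KO in radial glia-like cells at -0.72 ± 0.21 (edgeR adjusted p = 0.0203), layer II-IV-like at -0.48 ± 0.16 (edgeR adjusted p = 0.0246) and subventricular zone-like at -0.59 ± 0.19 (edgeR adjusted p = 0.0357). Each of these calls was lost without KO 1, KO 2, WT 2 or WT 3, and the last also without WT 1. Prefix-adjusted, they were -0.53, -0.37 and -0.23 (edgeR adjusted p = 0.453, 0.394 and 0.801). With DESeq2 all 3 had an adjusted p above 0.05, at 0.0939, 0.0795 and 0.108, and the first was also lost at resolution 0.8 (edgeR adjusted p = 0.0646). Chosen after their values were seen, Het 3, KO 1 and KO 2 were the 3 lowest embryos in 8 of 10 classes, the others being endothelial-like and erythroid-like cells. In layer I-like cells the margin was small, with Het 3 at 384 and WT 2 at 388. The same 3 embryos were the lowest in 0 of 10 classes for Snrpn, 0 of 8 for Mkrn3, 0 of 7 for Peg12 and 0 of 4 for Magel2. These are neighbours of Ndn on chromosome 7 in the same imprinted cluster. Since the 3 embryos were picked from Ndn, these counts are no test of a difference between the genes. Classes of 1 embryo are also not separate replicates.

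**Figure D5:**
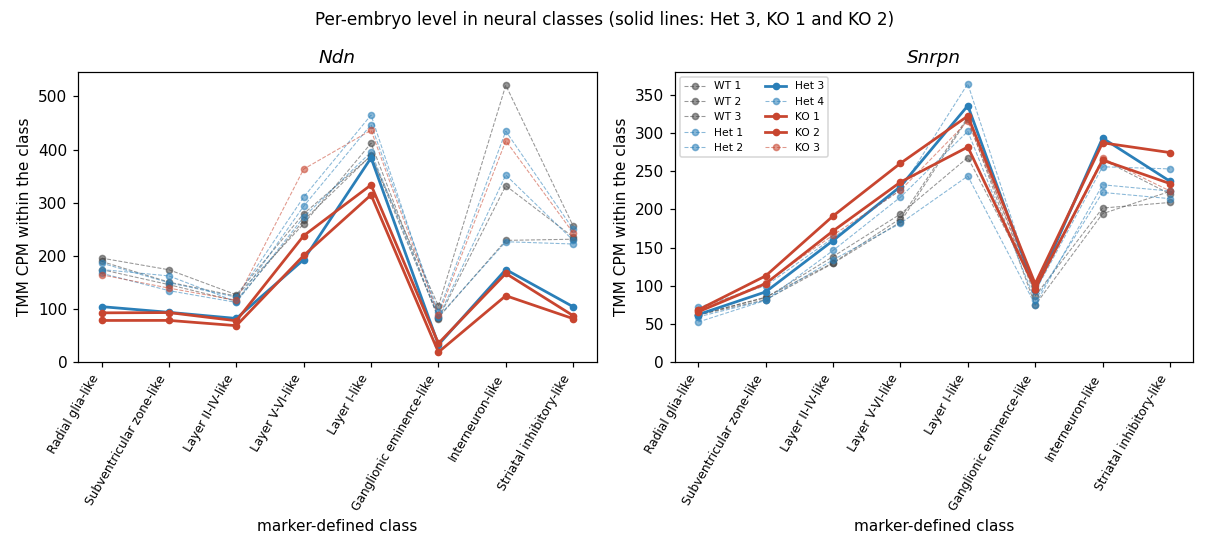
TMM CPM within each neural class (x axis) of Ndn (left) and of Snrpn (right), with 1 line per embryo coloured by genotype, solid for Het 3, KO 1 and KO 2 and dashed for the others. The solid lines run lowest for Ndn in every class shown, and they do not for Snrpn.

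The submitters' notes do not state how strand was used in counting, and sharing of reads between overlapping genes was not tested. The annotation (GENCODE M21, GRCm38) gives exons of Zrsr1 opposite Commd1, of Copg2 opposite Mest and of Kcnq1 opposite Kcnq1ot1. It also gives exons of Snhg14 opposite Ube3a and of Igf2os opposite Igf2. On the same strand, Gm28048 shares exons with Commd1, and Snurf, counted with 0 UMIs, shares exons with Snrpn. Rtl1 holds 6 microRNAs on the opposite strand and Mirg 9 on its own.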

How the data were processed

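The authors deposited UMI counts per gene and barcode for each embryo from 10X Genomics 3′ v3 libraries, as filtered matrices. The submitters' processing notes name Cell Ranger 6.0.2 and mm10, while the study's methods name another release. Cells that held 1000 UMIs or more, with no more than 10% of them mitochondrial, were clustered with Seurat 5.3.0 (RPCA integration, 2000 variable genes without imprinted genes, 30 components, resolution 0.4), and clusters were named from marker lists. Doublets were marked with Scrublet in scanpy 1.11.5 and removed in an alternative. UMI counts were summed per embryo within each class that had 20 or more cells in all embryos, and all 10 embryos were tested with edgeR 4.0.16 (R 4.3.3, TMM, filterByExpr, quasi-likelihood F-test, Benjamini-Hochberg over all genes). A call needed both an adjusted p below 0.05 and a log2 fold change beyond 0.25 in either direction. The difference between layer V-VI-like and interneuron-like cells was tested with limma 3.58.1 on log2(TMM CPM + 1). DESeq2 1.42.0, other filters, the library prefix, a replicate block and leaving out each embryo were alternatives. The tests were checked on simulated counts.

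The members and lists were chosen with earlier results of these data known. The members named with values are those called over all cells, the 10 most abundant in WT and those highest in non-neural classes. Members called within a class, and Copg2, Impact and Phlda2, were named as well, chosen after their values were seen. The study tested single cells, which are not replicates, and its cell tests were not repeated. Tools in Python 3.11.15 were pandas 2.3.3 and scipy 1.17.1.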

Additional observations from a re-analysis of the deposited data

Results flagged for a closer look

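Among 32 groups of Het embryos, 2 had an embryo far from the other 3, where chance gives about 1 in 20 groups. Dlk1 over all cells was highest in Het 3 at 8.63 TMM CPM, against 6.14, 6.25 and 6.52 in Het 1, Het 2 and Het 4. Het 3 also had 359 endothelial-like cells against 23 to 73 in the other embryos, a class with high Dlk1 levels, and the part of that class in the value was not tested. Commd1 over all cells was lowest in Het 4 at 72.0 TMM CPM, against 88.5, 90.2 and 91.1, and Het 4 had the library prefix of the WT embryos.

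The KO change differed between layer V-VI-like and interneuron-like cells for 3 members, with a limma adjusted p under 0.05. The change in layer V-VI-like minus that in interneuron-like cells was -0.47 for Mkrn3, -0.94 for Grb10 and 0.55 for Igf2r on the log2 scale. With the library prefix as a covariate 0 members passed, and the share of all genes passing there is not given.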

How the results depend on the processing

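Over all cells, the 16 log2 fold changes of called members gave 336 values under the alternatives. Of these, 264 kept direction and side of the adjusted p threshold, 72 lost the adjusted p and 0 reversed. The fold change threshold was not part of these counts. In classes, 50 gave 349 values, with 281 kept, 67 lost and 1 reversed, which was Commd1 in KO against WT in layer II-IV-like cells at -0.018 with the library prefix as a covariate. The cause of these changes was not tested.

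Of the 3 members called in Het against WT over all cells, the count was 5 with DESeq2, 6 with the replicate block, 0 with the prefix, 0 with only the groups compared and 0 to 5 without 1 embryo, with 0 without WT 1, WT 2, WT 3, Het 1 or Het 3 and 5 without Het 4. For KO against WT the count of 11 became 5 with the prefix, 12 with the block and 4 to 12 without 1 embryo, with 6 without WT 3, 4 without KO 2 and 7 without KO 3. For KO against Het the count of 2 became 4 with DESeq2, 3 with the block, 3 in libraries of 1 prefix and 1 to 3 without 1 embryo, with 1 without KO 1 or KO 3. The share of all genes called under each alternative in this section is not given, so the counts do not single out the members.

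In classes the 43 calls of KO became 14 with the prefix, 60 with the block, 37 with DESeq2, 55 without a filter on low counts, 52 at resolution 0.8, 53 without integration and 30 to 50 without 1 embryo. The 7 calls of Het became 1 with the prefix, 27 with the block, 21 without the filter, 3 at resolution 0.8 and 0 to 20 without 1 embryo, with 0 without WT 3 and 20 without Het 4. Of the 43, 27 kept an adjusted p under 0.05 in every test that left out 1 embryo and 11 with the prefix, whatever the fold change. Of the 7 these were 0 and 1. The 3 members whose change differed between layer V-VI-like and interneuron-like cells became 5 with the block, 0 with the prefix and 0 to 4 without 1 embryo.

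Replicate numbers were shared by the labels only. The correlation of deviations from the group means ran from -0.19 to 0.13 over 9 pairs of the same number, so the numbers were not used as pairs. A pair of alternatives was added after seeing the data: without endothelial-like cells 4, 11 and 2 members were called in Het against WT, KO against WT and KO against Het, and with the clusters of a class summed apart 40 of the 43 and 5 of the 7 calls were found in at least 1 cluster.

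KO and WT libraries shared no prefix, and the effects of genotype and prefix cannot be told apart. Igf2 and Phlda2, with 207 and 79 UMIs in all, rest on few molecules. Members with enough counts for a test ranged from 8 in microglia-like to 30 in layer V-VI-like cells. Expressed alleles were not measured.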

Other observations

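Other genes of the imprinted regions and of their control were followed as lists. Of 38 other imprinted genes 31 were tested, and in KO against WT 11 were called, 6 higher and 5 lower, where 24.5% of all genes were called. Cobl, an actin nucleator next to Grb10, stood at 5.64, 7.35 and 6.93 TMM CPM in WT, 3.04, 4.57, 4.41 and 4.39 in Het, and 2.36, 2.103 and 2.98 in KO, so that all mutant embryos were below all WT embryos. Its log2 fold change was -0.69 in Het (edgeR adjusted p = 0.039) and -1.42 in KO (edgeR adjusted p = 0.00019). Prefix-adjusted, these were -0.60 and -1.28 (edgeR adjusted p = 0.415 and 0.0287), and the Het call was lost without 7 of the 10 embryos in turn, all but Het 4, KO 2 and KO 3. The potassium channel gene Kcnk9 changed by -1.26, the Ras exchange factor Rasgrf1 by 1.26, Slc22a18 by 1.05 and Sfmbt2 by -0.62 in KO. Prefix-adjusted, Kcnk9 and Rasgrf1 were at -1.35 and 1.60 (edgeR adjusted p = 0.0103 and 0.00889), while Slc22a18 was at 0.08 and Sfmbt2 at -0.36 (edgeR adjusted p = 0.949 and 0.525). The Slc22a18 call was lost without KO 2 and the Sfmbt2 call without WT 3, KO 1 or KO 2. Of the 11 calls, 4 kept an adjusted p under 0.05 with the prefix.

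Of 22 regulators of imprints 19 were tested and 4 were called in KO, 2 higher and 2 lower, where 24.5% of all genes were called. Uhrf1, which brings Dnmt1 to replicating DNA, was at 11.4 ± 0.778 TMM CPM in WT (SD, n = 3), 14.5 ± 0.706 in Het (n = 4) and 17.03 ± 0.983 in KO (n = 3), with log2 fold changes of 0.34 and 0.57, or 0.30 and 0.53 when prefix-adjusted (edgeR adjusted p = 0.234 and 0.0161). Its Het call was lost without WT 1, WT 3, Het 1 or Het 3. These values are sums over all cells, and subventricular zone-like and ganglionic eminence-like shares were higher in KO, as given above. The part of these shares in the values of Uhrf1 and the other listed genes was not tested. Arid4a changed by -0.33, Mbd2 by 0.26, and Zfp57, which binds methylated imprinted regions, by -0.25. Prefix-adjusted, Arid4a was at -0.15, Mbd2 at 0.42 and Zfp57 at -0.10 (edgeR adjusted p = 0.194, 0.00128 and 0.494). Of 13 Igf pathway genes 6 were called in KO, 4 higher and 2 lower, against the same 24.5%. The growth factor gene Igf1 changed by -0.81 and Igfbp3 by -0.47, and Igf2bp2 by 0.46, Igfbp4 by 0.44 and Irs1 by 0.35. Irs1 was also called in Het at 0.30, lost without WT 1, WT 2, Het 1, Het 2 or Het 3, and the Igfbp3 call was lost without WT 1, KO 2 or KO 3. Prefix-adjusted, 2 of the 6 calls in KO kept an adjusted p under 0.05, Igf2bp2 at 0.73 and Igf2bp1 at 0.68, where it was 0.31 without the prefix and lost its call without 7 of the 10 embryos in turn, all but WT 1, Het 3 and Het 4. Igf1 was then at -0.39, Igfbp3 at -0.56, Igfbp4 at 0.25 and Irs1 at 0.24 (edgeR adjusted p = 0.473, 0.178, 0.214 and 0.111), with Irs1 at 0.22 in Het (edgeR adjusted p = 0.262).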
